A study of Homo sapiens with 35 samples.

Results

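The transcription factor MAF and the 5 myeloma genes known as its targets, CCND2, ITGB7, CCR1, CX3CR1 and NUAK1, were followed in RPMI-8226 cells over 10 days after a pulse of carfilzomib. The 6 genes were taken by symbol from the protein-coding entries of the count table, in which all 6 were found among 19665 protein-coding entries and 84647 entries of symbol and biotype in all. RPMI-8226 is a human multiple myeloma cell line that carries a MAF translocation, and carfilzomib is an irreversible inhibitor of the proteasome. RNA was sequenced from cells collected before the pulse of 750 nM carfilzomib for 1 h (day 0), and on 6 later days (days 1, 2, 4, 6, 8, 10), with 5 subcultures per day and 35 libraries. The labels list the treatment for day 0 too, but the methods of the study place its collection before the drug. All subcultures came from a single expanded culture of 1 line, so p-values measure the spread between subcultures. As no untreated cells were collected at later days, the pulse and time in culture cannot be told apart. By the methods, samples from day 2 on were taken just before a change of medium, and cell density was adjusted on days 6 and 8. Viable cells were fewest on day 2. Medium age, density and the surviving cells thus differed between days too, and cannot be separated here.

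MAF is a large basic leucine zipper factor that binds DNA as a dimer at MAF recognition elements. The arms of an element read TGCTGA, and their TGA is also part of its AP-1 or CRE core. In a subset of myeloma a translocation brings MAF beside an immunoglobulin enhancer. The factor then drives cyclin D2 (CCND2), which moves cells through G1, and the integrin subunit β7 (ITGB7), which helps plasma cells adhere to marrow stroma. CCR1 and CX3CR1 are chemokine receptors that steer myeloma cells within bone marrow, and NUAK1 is an AMPK-related kinase activated by LKB1.

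The promoter windows of MAF itself, of ITGB7, whose levels were most like those of MAF, and of the CX3CR1 start with a motif match are shown so that the elements named above can be read in place. They come from RefSeq (GRCh38.p14), run from 250 bases before to 50 after a start site, and are written on the minus strand of the genome, where all 3 genes lie. Capitals mark the arm TGCTGA, here found as its reverse complement TCAGCA, and the CRE core TGACGTCA.
MAF, chr16:79600688-79600987: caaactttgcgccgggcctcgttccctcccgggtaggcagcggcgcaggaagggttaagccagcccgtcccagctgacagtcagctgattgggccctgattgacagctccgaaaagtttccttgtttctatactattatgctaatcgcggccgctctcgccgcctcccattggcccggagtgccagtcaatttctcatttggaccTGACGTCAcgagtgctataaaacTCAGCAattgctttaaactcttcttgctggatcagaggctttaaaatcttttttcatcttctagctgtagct
ITGB7, chr12:53207202-53207501: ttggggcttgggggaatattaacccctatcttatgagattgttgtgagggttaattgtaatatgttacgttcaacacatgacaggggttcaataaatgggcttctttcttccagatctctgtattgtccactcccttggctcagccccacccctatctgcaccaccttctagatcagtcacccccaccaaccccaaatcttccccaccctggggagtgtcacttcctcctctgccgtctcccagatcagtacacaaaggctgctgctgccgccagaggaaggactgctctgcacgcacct
CX3CR1, chr3:39280392-39280691: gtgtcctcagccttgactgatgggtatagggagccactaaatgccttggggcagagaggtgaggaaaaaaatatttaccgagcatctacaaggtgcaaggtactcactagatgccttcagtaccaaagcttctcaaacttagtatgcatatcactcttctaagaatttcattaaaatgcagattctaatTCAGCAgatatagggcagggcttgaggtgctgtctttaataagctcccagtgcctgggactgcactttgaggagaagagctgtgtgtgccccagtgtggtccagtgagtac
The MAF window held TGACGTCA with its first base 45 bases before the start site, and TCAGCA 22 bases before it. The 2 matches did not overlap, so they do not make up a whole element. The ITGB7 window held neither, and the CX3CR1 window held TCAGCA 61 bases before its start site. Windows of 5 of the 6 genes were found (all but CCND2), 7 in total. The other windows, those of CCR1, NUAK1 and 2 further starts of CX3CR1, held none of the motifs searched, which were the arm TGCTGA, the AP-1 core TGAGTCA and the CRE core TGACGTCA, each on both strands. Of 35116 RefSeq windows of this length, 17.3% held TGCTGA, 4.95% held TGAGTCA and 1.85% held TGACGTCA.

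The libraries held 6519392 to 10962890 estimated counts (median 7643975), and no pair was identical. All 7 plasma cell markers were detected, with a summed level of 1856 to 2012 CPM on day 0, where CPM are protein-coding counts scaled to the library total. On day 1 the sum was 1284 to 1426 CPM, and on later days it was 1882 to 2328 CPM. Summed markers of B cells reached at most 16.9 CPM. Those of T cells reached 4.81 CPM, of monocytes 2.21 CPM and of stromal cells 2.38 CPM. In bulk RNA, fewer cells of a kind and less RNA per cell cannot be told apart.

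All 6 genes differed between days. In the test of any difference among the 7 days they were past Q ≤ 0.05, as were 64.7% of the 17999 protein-coding entries tested. The largest Q among the 6 was 1.69e-09, for NUAK1. Q is the Benjamini–Hochberg adjusted p of the quasi-likelihood test of edgeR, fitted over all 35 libraries, and levels are CPM. The genes did not follow a shared course. MAF and ITGB7 were lowest on day 1 and highest on day 6, CCND2 was highest before the pulse, and CCR1, CX3CR1 and NUAK1 were highest on day 2.

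**Figure D1:**
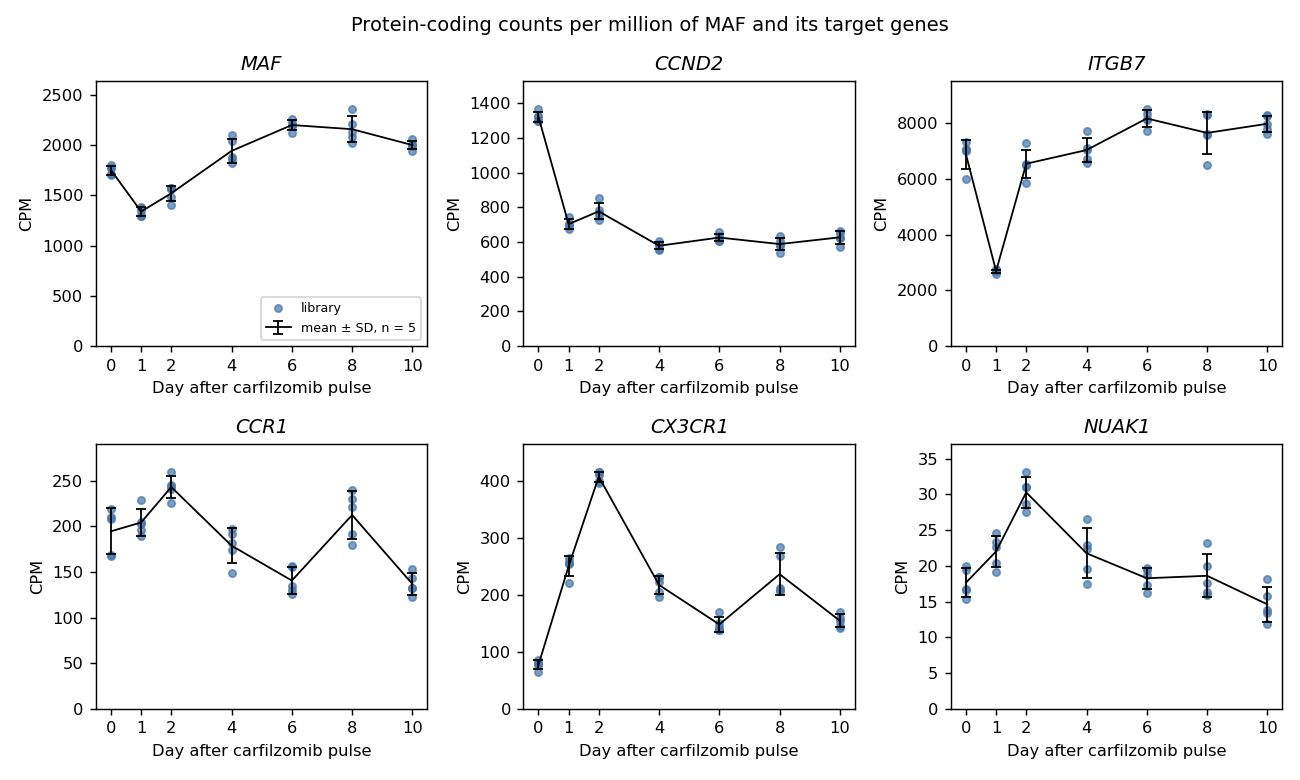
Level of each gene (CPM of protein-coding counts, linear axis from 0) by day, with points for the 35 libraries and a line through the mean ± SD of 5 libraries per day. The CCND2 points of every later day lie below those of day 0, the CX3CR1 points of every later day lie above them, and the ITGB7 points of day 1 lie between 2604 and 2752 CPM, below all others.

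These libraries hold RNA, so the amount and activity of MAF protein are not given by them. The RNA of MAF, the factor itself (chr16:79585843-79600737, minus strand, ENSG00000178573.7), fell on day 1 and was above its starting level from day 4 on. Its level was 1803, 1709, 1772, 1702 and 1777 CPM in the 5 libraries of day 0. On day 1 it was 1371, 1388, 1300, 1292 and 1347 CPM, every library below every library of day 0. On day 2 it was 1575, 1575, 1486, 1406 and 1565 CPM, which also lay below day 0. The mean of 1752 ± 44.8 CPM (SD, n = 5) was followed by 1340 ± 42.7 CPM on day 1, 76.4% of the starting level, a log2 fold change of −0.39 (SE 0.05, Q = 9.62e-10). On day 2 it was −0.20 (Q = 0.000194). That call was lost when libraries were compared without scaling factors, where the change was −0.08 (Q = 0.174) and the median of all expressed genes moved to 0.13.

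The later MAF libraries stood above the start. On day 6, the highest day, the level was 2264, 2226, 2125, 2199 and 2192 CPM, and no library of days 4 to 10 overlapped day 0. The change was 0.15 on day 4 (Q = 0.00682), 0.33 on day 6 (Q = 1.14e-07), 0.30 on day 8 (Q = 5.74e-07) and 0.19 on day 10 (Q = 0.000782), with an SE of 0.05 each. The rise from day 1 took place in 3 steps, of 0.18 to day 2, 0.35 to day 4 and 0.18 to day 6. The last of these was 0.12 without scaling factors (Q = 0.0787). In order of the mean, days 6, 8, 10 and 4 came first and overlapped their neighbours, while days 4 and 0, 0 and 2, and 2 and 1 did not overlap. The highest day was 1.64-fold above the lowest. From day 8 to 10 the change was −0.11, which did not pass the test (Q = 0.127) but did with DESeq2 (adjusted p = 0.0178).

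CCND2, which encodes cyclin D2 (chr12:4269771-4305353, plus strand, ENSG00000118971.9), fell by day 1 and was still low on day 10. Its level was 1296, 1366, 1328, 1301 and 1322 CPM on day 0 and 703, 691, 747, 704 and 676 CPM on day 1. On day 10 it was 653, 573, 622, 666 and 625 CPM. All 30 later libraries lay below all 5 of day 0. The mean of 1323 ± 27.6 CPM fell to 704 ± 26.5 CPM on day 1, a log2 fold change of −0.91 (SE 0.05, Q = 2.52e-20). It was lowest on day 4, at 579 ± 21.2 CPM, 43.8% of the start (−1.19, SE 0.05, Q = 2.35e-23). On day 10 it was 628 ± 35.7 CPM (−1.08, SE 0.05, Q = 1.13e-21).

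Between these days CCND2 rose slightly from day 1 to day 2, by 0.14 (Q = 0.0114), a call that was lost without day 2 replicate 1 (0.11, Q = 0.0696). It then fell by 0.43 to day 4 (Q = 1.07e-09). No step after day 4 passed the test, and in the order of their means days 10, 6, 8 and 4 each overlapped the next. MAF rose between days 2 and 4 and again between days 4 and 6.

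ITGB7, the integrin subunit β7 (chr12:53191323-53207282, minus strand, ENSG00000139626.16), had the largest fall of the 6 genes on day 1, and the fall lasted 1 time point. Its level was 7326, 7003, 6001, 7068 and 7030 CPM on day 0 and 2722, 2752, 2604, 2694 and 2698 CPM on day 1. On day 2 it was 6557, 7295, 6516, 5873 and 6508 CPM. Day 1 stood apart from every other day, while day 2 overlapped day 0. The mean fell from 6886 ± 511 to 2694 ± 55.3 CPM, 39.1% of the start, a log2 fold change of −1.35 (SE 0.06, Q = 2.13e-22). The return from day 1 to day 2 was a rise of 1.28 (SE 0.06, Q = 3.46e-21), to −0.07 against day 0 (95% interval −0.19 to 0.04, Q = 0.335).

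From day 6 on ITGB7 was slightly above its start. On day 4 the change of 0.03 did not pass the test (Q = 0.732), but without scaling factors it was 0.14 and did (Q = 0.0158). On day 6 its level was 8168, 8500, 7728, 8139 and 8349 CPM, all above day 0, with a change of 0.25 (Q = 0.000811). On day 10 it was 7795, 8292, 8251, 7959 and 7631 CPM, again all above day 0, with a change of 0.21 (Q = 0.00405). On day 8 the change of 0.15 passed the test (Q = 0.0383), but the libraries overlapped day 0. That call was lost without day 0 replicate 3 (0.11, Q = 0.165), without day 8 replicate 3 (0.16, Q = 0.0512), 4 (0.14, Q = 0.0723) or 5 (0.14, Q = 0.0671), and in a fit of the libraries of days 0 and 8 alone (Q = 0.113). The step from day 4 to day 6 was a rise of 0.22 (Q = 0.0104), lost without day 4 replicate 5 (0.17, Q = 0.0539).

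CX3CR1, the receptor of fractalkine (chr3:39263495-39281735, minus strand, ENSG00000168329.14), rose more than any other of the 6 genes. Its level was 77.5, 80.0, 64.3, 79.6 and 84.9 CPM on day 0 and 221, 256, 265, 258 and 254 CPM on day 1. On day 2 it was 411, 416, 400, 397 and 415 CPM. All 30 later libraries lay above all 5 of day 0. The mean rose from 77.3 ± 7.71 CPM before the pulse to 251 ± 17.2 CPM on day 1 (1.70, SE 0.08, Q = 2.31e-21) and to 408 ± 8.94 CPM on day 2 (2.40, SE 0.08, Q = 4.45e-26). On day 2 this was 528% of the starting level.

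After day 2 CX3CR1 went down, up and down again, and each step passed the test. It fell by 0.91 to day 4 (Q = 6.94e-13) and by 0.55 to day 6 (Q = 1.25e-06), then rose by 0.68 to day 8 (Q = 7.8e-08) and fell by 0.62 to day 10 (Q = 1.4e-07). Its level was 139, 138, 143, 171 and 150 CPM on day 6, and 209, 212, 269, 285 and 207 CPM on day 8. On day 10 it was 145, 155, 160, 142 and 171 CPM. Day 8 thus lay above both of its neighbours without overlap, and day 10 was still 2.00-fold above day 0.

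CCR1, the receptor of CCL3 and CCL5 (chr3:46201711-46208313, minus strand, ENSG00000163823.4), rose on day 2 and then swung about its start. Its level was 167, 211, 168, 219 and 208 CPM on day 0, and 259, 245, 241, 226 and 244 CPM on day 2. Every library of day 2 lay above day 0, with a log2 fold change of 0.32 (SE 0.08, Q = 0.000935). On day 6 it was 134, 126, 157, 155 and 131 CPM, all below day 0 (−0.47, SE 0.08, Q = 1.45e-05). Day 10, at 122, 143, 154, 132 and 132 CPM, was also below it (−0.51, SE 0.08, Q = 4.88e-06). Between these days, day 8 stood at 179, 191, 221, 240 and 230 CPM, a rise of 0.60 over day 6 (Q = 4.54e-06), and to day 10 the level fell by 0.63 (Q = 4.41e-07).

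Against day 0 the CCR1 values of days 1, 4 and 8 did not pass the test. The change was 0.07 on day 1 (95% interval −0.09 to 0.23, Q = 0.491), −0.12 on day 4 (−0.28 to 0.04, Q = 0.277) and 0.13 on day 8 (−0.03 to 0.29, Q = 0.24). Without scaling factors the day 1 change was 0.19 and passed (Q = 0.0433). From day 6 to day 8 CCR1 and CX3CR1 were the only ones of the 6 genes past the test, both higher, where 2.56% of all entries were. From day 8 to day 10 both were lower and past the test, where 10.1% of all entries were past it. The NUAK1 step of −0.35 missed it there (Q = 0.0565), but passed with RLE factors (Q = 0.0495), filterByExpr (Q = 0.0358) and DESeq2 (adjusted p = 0.0326), and without day 8 replicate 1 (Q = 0.0397), day 8 replicate 2 (Q = 0.035) or day 10 replicate 5 (Q = 0.0182).

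NUAK1, the kinase (chr12:106063345-106138954, minus strand, ENSG00000074590.14), rose to a peak on day 2, and from day 6 on no difference from day 0 passed the test (0.05 on day 6, 95% interval −0.18 to 0.28, Q = 0.798). It had the fewest counts of the 6 genes, 76 to 294 per library. Its level was 16.6, 16.8, 15.4, 19.4 and 20.0 CPM on day 0 and 27.6, 31.1, 33.1, 28.7 and 31.0 CPM on day 2. Day 2 lay above every other day, at a log2 fold change of 0.79 against day 0 (SE 0.11, Q = 1.17e-07). It rose by 0.46 over day 1 (Q = 0.000543), and by day 4 it had fallen by 0.47 (Q = 0.000583).

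The smaller changes of NUAK1 lay near the threshold, and leaving out 1 library could move them across it. With 1 library left out, the changes of days 1 and 4 against day 0 stayed positive (0.28 to 0.36 and 0.23 to 0.40). Day 1, at 19.1, 24.6, 23.4, 22.6 and 20.5 CPM, was 0.32 above day 0 (SE 0.12, Q = 0.0181). Leaving out day 0 replicate 1, day 0 replicate 3 or day 1 replicate 2 gave 0.28 in each case, with Q between 0.0564 and 0.0597. Day 4 was 0.31 above day 0 (SE 0.12, Q = 0.0299), which was lost without day 0 replicate 1 (Q = 0.0524) or 3 (Q = 0.0872), or day 4 replicate 1 (Q = 0.0519), 3 (0.23, Q = 0.144) or 4 (Q = 0.0626). Day 10, at 13.4, 15.8, 13.9, 11.9 and 18.1 CPM, had the lowest mean, but −0.27 against day 0 did not pass the test (95% interval −0.50 to −0.03, Q = 0.0945). Without day 10 replicate 5 it was −0.34 (Q = 0.0358).

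Counted together, 5 of the 6 genes were past Q ≤ 0.05 on day 1, against 52.7% of all entries (2 genes higher against 25.4%, 3 lower against 27.3%). On day 2 it was 5 genes against 47.7% (3 higher against 23.2%, 2 lower against 24.4%). On day 4 it was 4 genes against 39.1% (3 higher against 19%, 1 lower against 20.1%), and on day 6 it was 5 genes against 34.5% (3 higher against 17.5%, 2 lower against 17%). On day 8 it was 4 genes against 36.8% (3 higher against 18.2%, 1 lower against 18.6%), and on day 10 it was 5 genes against 31.9% (3 higher against 16.1%, 2 lower against 15.8%).

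All 6 genes had counts high enough for filterByExpr, and among the 12340 entries that did, the shares past the test were higher than among all entries, at 70.8%, 64.7%, 53.9%, 47.9%, 50.6% and 44.6% on days 1, 2, 4, 6, 8 and 10. Past a 2-fold change as well, ITGB7 and CX3CR1 were counted on day 1 (20.4% of all entries), CX3CR1 on day 2 (15.3%), CCND2 and CX3CR1 on day 4 (9.41%), CCND2 on day 6 (6.71%), and CCND2 and CX3CR1 on days 8 (8.18%) and 10 (5.93%). CX3CR1 lay on this limit on day 10, at 2.00-fold.

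Over the step from day 1 to day 2, all 6 genes rose, where 39.6% of all entries were past the test (20.2% higher, 19.4% lower). ITGB7 alone rose more than 2-fold, as 10.3% of all entries changed. From day 2 to 4 it was 5 genes against 30.6%, with MAF higher against 13.9% and 4 genes lower against 16.7%. ITGB7 missed the test for this step (0.10, Q = 0.203) but passed it as higher with filterByExpr (0.15, Q = 0.0271) and DESeq2 (0.13, adjusted p = 0.0438), and without day 2 replicate 2 (0.18, Q = 0.0192) or day 4 replicate 5 (0.16, Q = 0.0384). From day 4 to 6 it was 4 genes against 12.1%, with ITGB7 and MAF higher against 6.09%, and CCR1 and CX3CR1 lower against 5.98%. For the steps between days 6, 8 and 10 the shares of all entries were 1.03% higher and 1.53% lower, then 5.08% higher and 4.97% lower. None of the 6 genes moved more than 2-fold in a step after day 2, where 3.09%, 0.628%, 0.128% and 0.678% of all entries did. Among entries passing filterByExpr, 55.2%, 43.5%, 17.4%, 3.7% and 14.5% were past the test in the 5 steps.

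**Figure D2:**
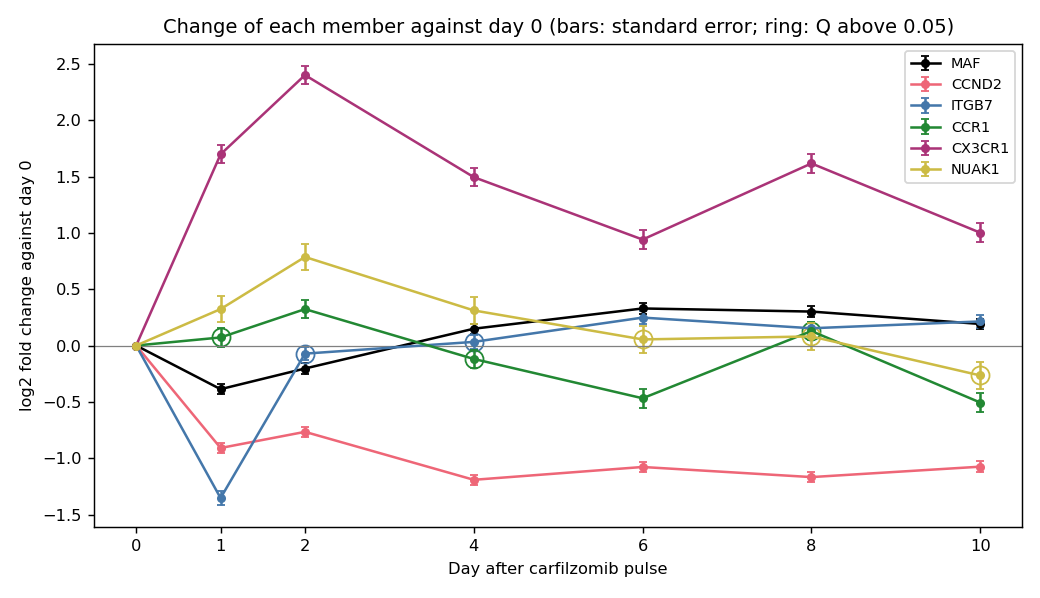
Log2 fold change of each of the 6 genes against day 0 (vertical axis) by day, from the fit over 35 libraries, with bars for the standard error. A ring marks changes with Q above 0.05. CX3CR1 peaks at 2.40 on day 2, ITGB7 dips to −1.35 on day 1 alone, and CCND2 lies between −0.77 and −1.19 throughout.

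To ask whether a target moved in proportion to MAF RNA, its count was divided by the MAF count within each library. The log2 of this ratio was used, in which library size and scaling cancel. The 30 ratios (5 targets, 6 days) were compared with day 0 by exact two-sided permutation tests, a comparison chosen after the levels had been seen. With 5 libraries against 5 there are 252 splits and the smallest possible p is 0.00794. After Benjamini–Hochberg adjustment over the 30 tests, 22 were past 0.05. Ratios of different targets share the MAF count. MAF itself was past Q ≤ 0.05 on each of the 6 days, so an unchanged gene can also show a shifted ratio. CCR1 on day 1 had a change of 0.07 that did not pass the test (Q = 0.491), yet its ratio is among the 22. The share of all entries with such a ratio was not computed, so the 22 cannot be set against it.

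The CCND2 ratio was below that of day 0 in all 5 libraries of each day. It was 0.52 lower in log2 on day 1 and 1.47 lower on day 8 (−0.52 and −1.47, adjusted p = 0.0119 each, exact permutation test). The ITGB7 ratio was −0.96 on day 1 (adjusted p = 0.0119, exact permutation test), so ITGB7 fell further than MAF. On days 4, 6, 8 and 10 it was −0.11, −0.08, −0.15 and 0.02, and none of these passed the test (adjusted p = 0.22, 0.23, 0.19 and 0.746, exact permutation test). Without day 0 replicate 3, the lowest ITGB7 library of that day, the ratio of day 6 was −0.13 and passed it (adjusted p = 0.0113, exact permutation test). On day 2 the ITGB7 ratio was 0.13 higher (adjusted p = 0.0119, exact permutation test), a call that was lost without day 0 replicate 3 (0.08, adjusted p = 0.0694, exact permutation test), day 2 replicate 2 (0.11, adjusted p = 0.0974, exact permutation test) or day 2 replicate 3 (0.13, adjusted p = 0.0649, exact permutation test). All 5 ratios of day 2 lay above day 0, so those kept did not overlap it. With groups of unequal size, other splits can still give as large a difference.

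The CX3CR1 ratio was higher on every day, from 0.61 on day 6 to 2.61 on day 2 (adjusted p = 0.0119 each, exact permutation test). The CCR1 ratio was higher on days 1 and 2 (0.46 and 0.53) and lower on days 6 and 10 (−0.79 and −0.69), with an adjusted p of 0.0119 each by exact permutation test. The NUAK1 ratio was likewise higher on days 1 and 2 (0.71 and 0.98, adjusted p = 0.0119 each, exact permutation test). It was lower on day 10 (−0.47, adjusted p = 0.0227, exact permutation test) and on day 6 (−0.28, adjusted p = 0.0325, exact permutation test). The call of day 6 was lost without day 0 replicate 4 or 5 or day 6 replicate 1, 2 or 3, with adjusted p between 0.0541 and 0.0758 by exact permutation test.

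**Figure D3:**
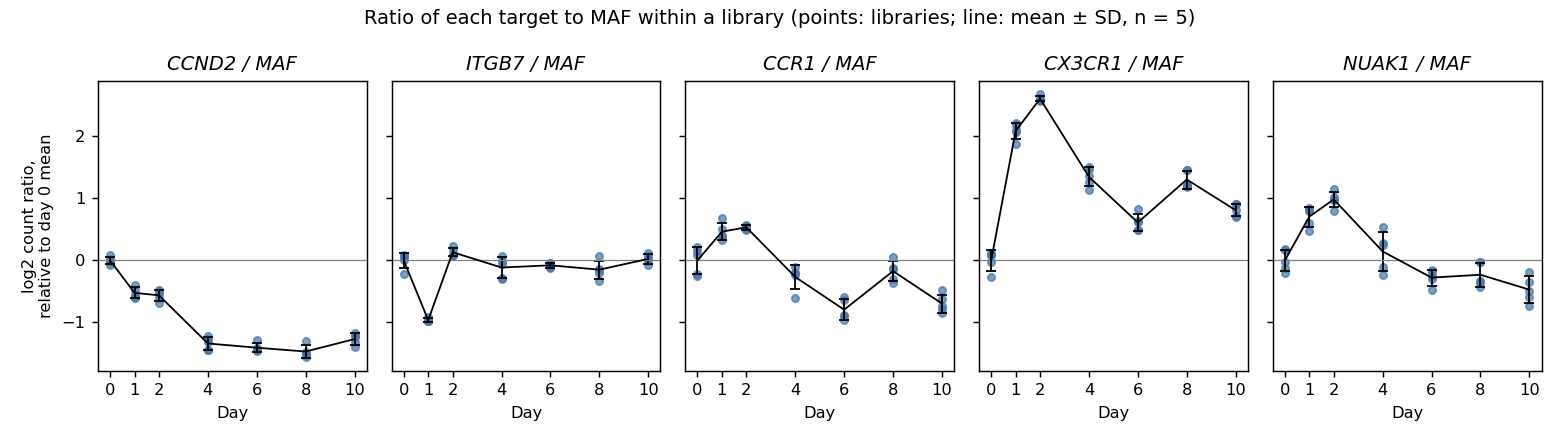
Log2 ratio of each target's count to the MAF count within a library, set to a mean of 0 on day 0, by day. Points are libraries and the line joins means ± SD (n = 5). The ITGB7 ratio leaves the line at 0 mainly on day 1 (−0.96), the CCND2 ratio lies below it on every later day, and the CX3CR1 ratio lies above it on every later day.

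Over the 35 libraries, ITGB7 was the gene of the 6 whose log2 CPM was most like that of MAF, with a Pearson r of 0.81 and rank 653 among 12339 other entries. The r with MAF was −0.34 for CX3CR1, −0.35 for CCND2, −0.53 for NUAK1 and −0.54 for CCR1. By rank (Spearman) it was 0.78 for ITGB7, still the highest of the 5, and −0.63 for CCND2, the lowest. After each day's mean was subtracted it was 0.13 for ITGB7 and 0.26 for CX3CR1, and between −0.09 and 0.09 for the other targets. Among the targets, r was 0.70 for CCR1 with NUAK1 and 0.70 for CX3CR1 with NUAK1. The entries most like MAF were KLHL24 and RABGAP1L (r = 0.96 each), POLR1D (0.96), and RNF44 and ZCCHC11 (0.95 each). For KLHL24 the mean of 5 libraries was 58.8 CPM on day 0, 34.8 CPM on day 1 and 114 CPM on day 6. These values are a description: libraries share the day and the scaling, and over the 7 day means r was 0.98 to 0.99 for the 5 entries. Within days their r was 0.26 to 0.45.

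The count table also holds entries for other transcript classes of the same symbols, which were found with counts for CCND2 and ITGB7 and were examined after the levels had been seen. A retained-intron transcript keeps an intron and is not annotated as coding. For ITGB7 its share of retained-intron plus protein-coding counts was 2.26%, 2.96%, 3.03%, 2.34% and 2.61% on day 0. On day 1 it was 8.72%, 6.79%, 5.51%, 5.92% and 5.75%, and on day 2 it was 4.08%, 3.34%, 4.64%, 5.81% and 4.14%. Every library of days 1 and 2 lay above day 0. The mean went from 2.64% ± 0.351 (SD, n = 5) to 6.54% ± 1.31 on day 1 and 4.40% ± 0.916 on day 2 (adjusted p = 0.0317 each over 24 tests, exact two-sided permutation test).

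The retained-intron counts of ITGB7 themselves were 845 to 1347 on day 0 and 896 to 1769 on day 1, which overlap, while the protein-coding counts were 33572 to 52093 and 15378 to 18516. On day 2 the retained-intron counts were 1786 to 2817, all above day 0, and the protein-coding counts were 38078 to 68031, which overlap day 0. These counts are not scaled for library size, and shares of genes outside the members were not examined. For CCND2 the share was 0.444% ± 0.135 on day 0 and 0.957% ± 0.237 on day 1, and on day 6 it was 0.117% ± 0.0620 (adjusted p = 0.0317 each, exact permutation test). The CCND2 counts were small, 27 to 51 on day 1 and 1 to 7 on day 6. The processed-transcript share of CCND2 was 0.132%, 0.354% and 0.0319% on days 0, 1 and 6 (adjusted p = 0.0317 for both, exact permutation test). No day passed the test for the nonsense-mediated decay entry of ITGB7, whose smallest adjusted p was 0.22 by exact permutation test. The differences that passed kept their direction when any 1 library was left out, but many adjusted p rose above 0.05. The libraries kept still did not overlap day 0. With groups of unequal size other splits can give as large a difference, and the adjustment depends on the other tests too. A lost call therefore does not show that a difference rested on the library left out. For the ITGB7 share of day 1 this was so without day 0 replicate 2, 3, 4 or 5, for that of day 2 and the CCND2 shares of day 1 without any 1 of the day 0 libraries, and for the CCND2 shares of day 6 without any library of either day other than day 0 replicate 1. The adjusted p was then 0.0544 to 0.0816 by exact permutation test, with ITGB7 differences of 3.35 to 4.16 percentage points on day 1. These are estimated counts, so reads shared between transcripts of a gene were divided by the quantification, and PCR copies are not independent molecules.

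**Figure D4:**
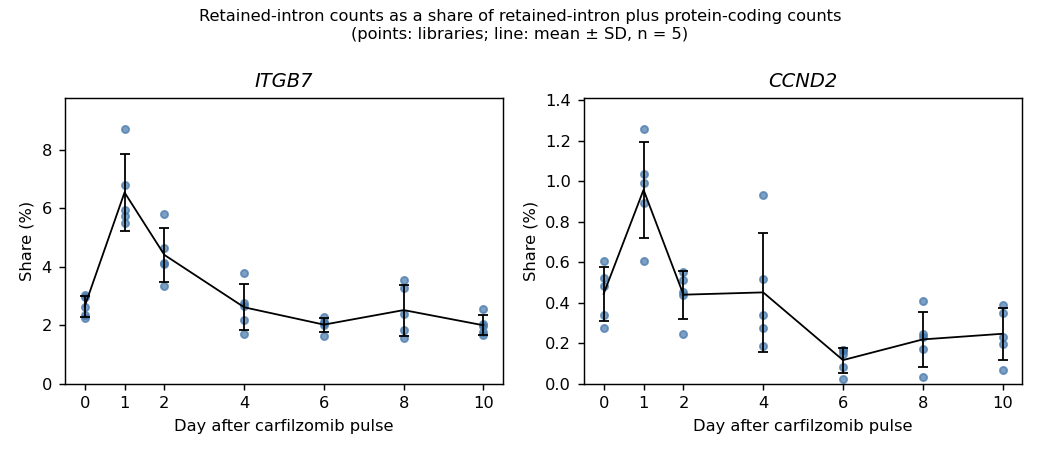
Retained-intron counts of ITGB7 (left) and CCND2 (right) as a percentage of retained-intron plus protein-coding counts, by day, with points for libraries and a line through means ± SD (n = 5). The vertical axes differ. The ITGB7 share lies between 5.51% and 8.72% on day 1, above every library of day 0.

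The genes around MAF were described from short lists. The small MAF proteins MAFF, MAFG and MAFK, which lack an activation domain and pair with other bZIP factors, were expressed, while MAFA and NRL had daily means of at most 1.22 CPM. On day 1 MAFG rose by 0.47 (SE 0.07, Q = 3.38e-07), and MAFF (−0.36, Q = 0.026) and MAFK (−0.27, Q = 0.002) fell. The MAFF call was lost without scaling factors (−0.24, Q = 0.134) and without day 0 replicate 1, day 0 replicate 3 or day 1 replicate 3. Of these 5 genes, MAFK was past the test on day 10 (−0.53, SE 0.08, Q = 3.71e-07).

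The genes of the ubiquitin pathway and kinases reported to act on the MAF protein were all higher on day 1, 7 of 7 against 25.4% of all entries, with a list median of 0.61 against −0.06 over all entries tested. All 7 passed filterByExpr, and 70.8% of entries that did were past the test in either direction. USP5, a deubiquitinase, rose most, from 60.9 ± 4.15 to 267 ± 17.7 CPM (2.14, SE 0.06, Q = 2e-28). On day 10 it was 2 of 7, both higher, against 16.1% of all entries. UBE2O, a ubiquitin ligase, had the largest rise there (0.58, SE 0.06, Q = 1.57e-10). WWOX, a tumor suppressor whose gene ends 373176 bases from MAF on chromosome 16, was at 16.1 ± 2.48 CPM on day 0 and 16.1 ± 1.79 CPM on day 1 (0.00, Q = 1), and was higher than at the start on day 2 (1.13), day 4 (0.60) and day 10 (0.49, Q = 0.00491).

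Of 7 other genes known from MAF myeloma, 3 were higher and 4 lower on day 1 (25.4% and 27.3% of all entries), and 3 were higher and 3 lower on day 10 (16.1% and 15.8%). DEPTOR, an inhibitor of mTOR kinase, fell from 149 ± 6.55 to 20.6 ± 1.35 CPM on day 1 (−2.86, SE 0.06, Q = 5.17e-33) and was 252 ± 12.3 CPM on day 10 (0.76, SE 0.05, Q = 3.47e-16). SPP1, the secreted protein osteopontin, rose from 127 ± 7.69 to 453 ± 22.0 CPM on day 1 and was at 749 ± 142 CPM on day 10 (2.56, SE 0.14, Q = 1.24e-18). APOBEC3A, a cytidine deaminase, was at 1.18 ± 0.484 CPM on day 0 and 5.03 ± 1.45 CPM on day 1 (2.08, SE 0.49, Q = 0.000369). On day 10 it was −1.83 (Q = 0.0237), a call that was lost when any of 5 single libraries was left out (day 0 replicate 1, 4 or 5, day 10 replicate 2 or 3, with Q of 0.0506 to 0.0741).

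Among partners and ligands of the integrin, 1 of 6 was higher on day 1 (25.4% of all entries), and the partner ITGA4 and the ligand MADCAM1 were lower (27.3%). MADCAM1 was near the floor, with means of 0.575 CPM on day 0 and 0.193 CPM on day 1. Of the 6 genes 4 passed filterByExpr, so the others had few counts to be called on. On day 10 none of the 6 passed the test of edgeR, where 31.9% of all entries did, and the smallest Q was 0.0679, for MADCAM1. ITGA4, the α4 subunit that pairs with β7, fell from 90.1 ± 1.77 to 27.2 ± 2.78 CPM on day 1 (−1.73, SE 0.08, Q = 2.69e-21), alongside ITGB7. On day 2 ITGA4 was still low (−0.55), and on day 10 it was at −0.00 (Q = 1). ITGB1, the β1 subunit that also pairs with α4, rose on day 1 (0.30, SE 0.06, Q = 5.27e-05).

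Of the ligands of the 2 chemokine receptors, 6 of 7 had a count and CCL3 and CCL5 had levels above 1 CPM. CCL3, a ligand of CCR1, fell from 63.0 ± 14.6 to 1.80 ± 0.763 CPM on day 1 (−5.13, SE 0.27, Q = 7.33e-20) and was 3.91 ± 1.54 CPM on day 10 (−4.0, SE 0.24, Q = 4.68e-17). CCL5 rose on day 1 (0.28, Q = 0.000326) and was lower on day 10 (−0.88, SE 0.07, Q = 1.2e-13). CX3CL1, the ligand of CX3CR1, had daily means of at most 0.379 CPM.

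Partners and inhibitors of the D cyclins went both ways on day 1, 3 higher and 3 lower of 7 with a count, against 25.4% and 27.3% of all entries. CDKN1A, the CDK inhibitor p21, fell from 546 ± 83.2 to 58.3 ± 9.34 CPM on day 1 (−3.23, SE 0.10, Q = 2.59e-28) and was 41.7 ± 5.05 CPM on day 10 (−3.71, SE 0.10, Q = 4.68e-29). CDKN1B, the CDK inhibitor p27, rose from 48.1 ± 3.42 to 103 ± 4.38 CPM on day 10 (1.10, SE 0.07, Q = 8.61e-17). CCND3, cyclin D3, rose on day 1 (0.74, SE 0.10, Q = 8.59e-09), when CCND2 and CCND1, cyclin D1, fell (−0.91 and −0.97). On day 10 CCND1 was still lower (−0.76, Q = 7.86e-09), and CCND3 was at 0.13 (Q = 0.356).

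In the kinase pathway of NUAK1, 3 of 5 genes were higher on day 1 (25.4% of all entries) and 2 on day 10 (16.1%). NUAK2, its paralog, rose from 12.5 ± 0.545 to 25.4 ± 2.34 CPM on day 1 (1.01, SE 0.13, Q = 4.79e-09) and was at 41.7 ± 6.42 CPM on day 10 (1.73, SE 0.12, Q = 3.58e-15). NUAK1 itself was at 0.32 and −0.27 on these days. Among 5 genes of other myeloma translocations, 1 was higher and 2 were lower on day 1, where 25.4% and 27.3% of all entries were, and 1 was higher and 1 lower on day 10, where 16.1% and 15.8% were. Of the 5 genes 3 passed filterByExpr. FGFR3, lower on day 1, was near the floor, with a mean of 0.524 CPM on day 0 and no count on day 1. The other calls of day 1, CCND3 and CCND1, were also counted with the D cyclins. NSD2, a histone methyltransferase, was the one higher on day 10 (0.47, SE 0.07, Q = 4.69e-07).

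**Figure D5:**
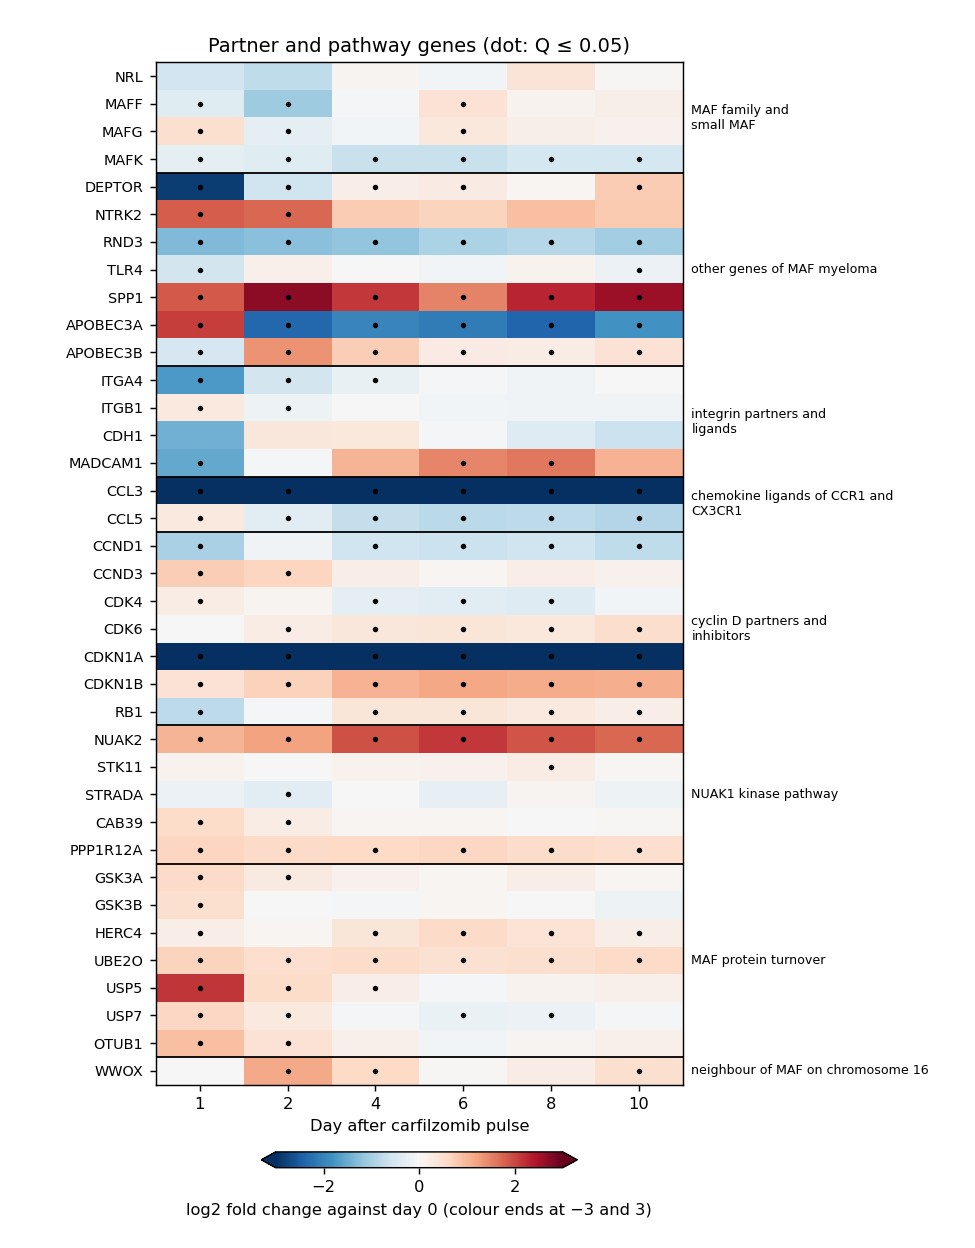
Log2 fold change against day 0 (colour, blue lower and red higher, ending at −3 and 3) of genes from the lists around MAF, by day, with a dot where Q ≤ 0.05. CCL3 and CDKN1A are lower on all 6 days, all 7 genes of MAF protein turnover have a dot on day 1, and DEPTOR goes from −2.86 on day 1 to 0.76 on day 10.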

How the data were processed

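RPMI-8226 cells were sequenced (directional libraries, paired-end reads) in 35 libraries, 5 subcultures on each of 7 days, grouped by the day in the labels. The deposited estimated counts were made by the authors with Kallisto 0.44.0 against GENCODE transcripts of GRCh38, adjusted for GC content and transcript length, and are whole numbers per symbol and transcript biotype, without scaling for library size. The setting for strand is not given in the sources used here.

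Protein-coding entries with a count (17999, the other 1666 had none) were fitted with edgeR 4.0.16 (glmQLFit, glmQLFTest) in R 4.3.3, with TMM factors of 0.929 to 1.08, day as a factor, and Benjamini–Hochberg adjustment over all entries. Genes were called at Q ≤ 0.05. CPM used the TMM-normalized protein-coding library size, and correlations used log2 CPM with a prior count of 2. The steps were tested on simulated data. Depth was 6519392 to 10962890 counts per library. No column lay outside these samples (0).

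The 6 genes, the lists and the tests were chosen with earlier results of these data known. Named were the 6 genes, WWOX, genes of the MAF family, the 5 entries with the highest r with MAF, and from each list the largest rise and fall on days 1 and 10 among genes past Q ≤ 0.05 with a mean log2 CPM above 0. CX3CL1 and MADCAM1 were chosen after their values were seen, and marker lists are given by their sums. Some items of these lists are not reported here. Gene positions came from GENCODE release 44. Alternatives were RLE factors, no factors, filterByExpr, the replicate block, 2-day fits, DESeq2 1.42.0, a 2-fold cutoff and each library left out.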

Additional observations from a re-analysis of the deposited data

Results flagged for a closer look

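In 42 groups of 5 libraries (6 genes on 7 days), 2 held a library whose gap to the nearest other exceeded Dixon's 95% critical value, and chance alone flags about 1 group in 20. The ITGB7 level of day 0 replicate 3 was the lowest of its day at 6001 CPM, where the other libraries held 7003 to 7326 CPM. The fall of ITGB7 on day 1 passed the test without this library, while the day 8 call and the day 2 ratio to MAF did not. The CX3CR1 level of day 1 replicate 1 was the lowest of its day at 221 CPM, where the other libraries held 254 to 265 CPM, and the rise of CX3CR1 on day 1 passed the test without it.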

How the results depend on the processing

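Of 66 changes of the 6 genes (11 comparisons), 65 stayed on their side of the threshold in their direction with RLE factors, 64 with filterByExpr, 63 with DESeq2, 65 in the 2-day fits and 61 without scaling factors. With 1 library left out, 633 of 660 did. The replicate numbers were not taken as pairs, since the labels do not tie a number to a subculture over days and 2 of 105 same-numbered pairs had r above 0.1 (median 0.0023), although 14 of 35 libraries correlated best with their own number of 5. With the replicate block all 66 stayed and the counts of genes called were unchanged (5 on day 1 against day 0, for example). The exact permutation tests had no blocked version. With a fold above 2 as well, the counts against day 0 were 2, 1, 2, 1, 2 and 2 on days 1, 2, 4, 6, 8 and 10. Between consecutive time points they were 1 from day 1 to 2 and 0 after it, since the cutoff itself is stricter. DESeq2 called 4 genes between days 8 and 10. Leaving out 1 library gave 4 to 5 genes on day 1, 5 to 5 on day 2, 3 to 4 on day 4, 5 to 5 on day 6, 3 to 4 on day 8 and 5 to 6 on day 10. For the steps it gave 5 to 6 from day 1 to 2, 5 to 6 from 2 to 4, 4 to 4 from 4 to 6, 2 to 2 from 6 to 8 and 2 to 3 from 8 to 10. Of the 5 entries most like MAF, 3 were among the top 5 by Spearman and 0 within days. The values that changed sign had not passed the test. They were ITGB7 on day 2 without scaling factors (0.056) and on day 4 without day 0 replicate 3 or day 4 replicate 1 (−0.013 to 0.077 over all libraries left out), NUAK1 on day 8 (−0.0022 to 0.15), and the steps from day 6 to 8 of MAF (−0.050 to 0.0091) and NUAK1 (−0.060 to 0.095). The ratio of ITGB7 to MAF on day 10 ranged from −0.028 to 0.051. Shares of other transcripts that changed sign were retained introns of CCND2 on day 2 (−0.0463 to 0.0442 percentage points) and day 4 (−0.114 to 0.0728) and of ITGB7 on day 4 (−0.320 to 0.206) and day 8 (−0.375 to 0.119), the CCND2 processed transcript on day 4 (−0.0290 to 0.00367), and the decay entry of ITGB7 on day 4 (−0.0151 to 0.0741) and day 8 (−0.0721 to 0.00412). The causes were not tested.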
